A study of Mus musculus with 16 samples.

Results

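The clustered protocadherins are adhesion receptors of neurons that lie side by side on mouse chromosome 18 in 3 gene clusters, alpha, beta and gamma. The genes were taken by symbol, as every gene named *Pcdha*, *Pcdhac*, *Pcdhb*, *Pcdhga*, *Pcdhgb* or *Pcdhgc* with a number, and 57 of the 53679 gene symbols of the table met this rule. They form 6 classes, with 11 *Pcdha*, 2 *Pcdhac*, 22 *Pcdhb*, 12 *Pcdhga*, 7 *Pcdhgb* and 3 *Pcdhgc* genes. On GRCm38, the alpha cluster spans chr18:36930184-37187661 with 13 of the genes, the beta cluster spans chr18:37264938-37524479 with 22, and the gamma cluster spans chr18:37661793-37841873 with 22, all on the plus strand. *Pcdha10* is no symbol of the table. An isoform that begins at its place is listed under *Pcdha11*, so the value of *Pcdha11* covers both genes.

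Each alpha and gamma gene has its own large first exon, which encodes the extracellular cadherin repeats, the membrane segment and a short cytoplasmic stretch, and splices to constant exons that all genes of its cluster share. Beta genes are single-exon genes with no constant part. A neuron turns on a small, variable set of the alternate genes (*Pcdha*, *Pcdhb*, *Pcdhga* and *Pcdhgb*) from their own promoters, with the help of CTCF, cohesin, distant enhancers and DNA methylation, whereas the C-type genes (*Pcdhac1*, *Pcdhac2*, *Pcdhgc3*, *Pcdhgc4* and *Pcdhgc5*) are used more generally. The proteins pair with like proteins on facing membranes, and this recognition is known for dendrite self-avoidance, axon tiling, dendrite branching and the survival of interneurons.

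RNA of 16 primary cortical neuron cultures from wild-type mouse embryos at E15 was sequenced, 4 in each of 4 groups. On day 8 in vitro (DIV 8) the cultures received vehicle or 10 μM of the antidepressant tianeptine (TIA), and 24 h later they underwent 3-h oxygen-glucose deprivation (OGD), a model of ischemia, or a sham treatment, each followed by 6 h of reoxygenation. CONTROL-VEH (cultures 1 to 4) had vehicle and sham, CONTROL-TIA (5 to 8) TIA and sham, OGD-VEH (9 to 12) vehicle and OGD, and OGD-TIA (13 to 16) TIA and OGD. The labels call the vehicle cultures untreated. The values are FPKM (fragments, here 50-base single-end reads, per kilobase of transcript and scaled to the depth of the library), summed over the isoforms of each symbol. The estimated depth was 19980000 to 26040000 reads per culture (rounded), at which 1 read on 1 kilobase is worth 0.0384 to 0.0501 FPKM.

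The cultures carried neuronal transcripts throughout, and the levels of cell type markers differed between the groups. The summed level of 16 neuron markers was 3246 to 3836 FPKM in CONTROL-VEH, 3303 to 3479 in CONTROL-TIA, 1499 to 2899.6 in OGD-VEH and 1989 to 3220.2 in OGD-TIA. The summed level of 9 astrocyte markers was 769 to 1642 FPKM in CONTROL-VEH, 673 to 889.8 in CONTROL-TIA, 1034 to 2607 in OGD-VEH and 773 to 1981 in OGD-TIA. Markers of the oligodendrocyte lineage (8 genes) summed to 177 to 213, 159 to 194, 244 to 676 and 225 to 438 FPKM in the same order of groups, and progenitor markers (7 genes) to 107 to 164, 105 to 120.3, 149 to 429 and 127 to 310.3. The 7 microglia markers, of which 2 passed the filter on low values, summed to 2.55 to 5.88, 2.60 to 5.14, 10.9 to 15.4 and 4.41 to 11.4 FPKM in the same order, and *Cx3cr1*, a defining gene of microglia, was at or near 0. The 11 vascular and fibroblast markers, of which 2 passed in the OGD comparisons, summed to 12.5 to 18.5, 11.6 to 16.9, 8.38 to 11.8 and 9.55 to 12.7 FPKM, and *Cldn5* and *Cdh5* were at or near 0. In bulk RNA, fewer cells of a type and less RNA per cell cannot be told apart.

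The clustered protocadherins were low to moderate transcripts, and 3 of the 5 C-type genes, *Pcdhgc4*, *Pcdhgc3* and *Pcdhac2*, had the highest FPKM, whereas *Pcdhgc5* had 2.55 FPKM and *Pcdhac1* was among the lowest. By the mean over the 16 cultures, 47 of the 57 genes lay between 1 and 10 FPKM and 6 were at 10 FPKM or more. *Pcdhgc4* had 57.7 FPKM, of which 9.68 FPKM in its full-length isoform, *Pcdhgc3* 45.5 FPKM, *Pcdhac2* 19.7 FPKM, *Pcdha11* 13.6 FPKM, *Pcdhga3* 12.4 FPKM and *Pcdhga11* 11.6 FPKM. The genes *Pcdha8* (0.361 FPKM), *Pcdhac1* (0.352 FPKM) and *Pcdhb1* (0.323 FPKM), stayed under the filter of a mean of 0.5 FPKM and were not tested in any comparison, which left 54 genes. *Pcdhgb8* lay between 0.5 and 1 FPKM. No gene was listed at 0 in any culture. Among the CONTROL-VEH cultures the coefficient of variation had a median of 11.5% over the tested genes and reached from 4.07% to 60.2%.

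The highest *Pcdha* gene after *Pcdha11* was *Pcdha4* with 8.19 FPKM, the highest *Pcdhb* genes were *Pcdhb20* with 7.61 FPKM and *Pcdhb8* with 6.96 FPKM (4.00 FPKM of it in an isoform of 462 bases with an estimated mean of 39.2 reads, and 2.96 FPKM in the full-length isoform), and the highest *Pcdhgb* genes were *Pcdhgb6* with 6.62 FPKM and *Pcdhgb4* with 3.88 FPKM. At the low end, *Pcdhga10* had 3.23 FPKM, the least of its class, and *Pcdhgb8* had 0.754 FPKM, of an isoform that the annotation calls a polymorphic pseudogene. In CONTROL-VEH, *Pcdhac2* made up 24.7% ± 3.06 (SD, n = 4) of the summed FPKM of the alpha cluster, and *Pcdhgc3* together with *Pcdhgc4* 46.7% ± 3.67 (SD, n = 4) of that of the gamma cluster.

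The question of the first comparison was what OGD does to these genes without the drug. The summed FPKM of the *Pcdha*, *Pcdhac*, *Pcdhb* and *Pcdhga* classes was lower in every OGD-VEH culture than in any control, the *Pcdhgb* and *Pcdhgc* sums overlapped with the controls, and *Pcdhgc3* was above every control in 3 of 4 cultures. Of single genes, 2 of 10 tested *Pcdha*, 0 of 21 *Pcdhb* and 1 of 12 *Pcdhga* genes had a limma padj of at most 0.05. All were lower, as were 3.45% of all genes at this padj. Of those tested 10, 20 and 11, in the same order, had a log2 fold change below 0, against 41.8% of all genes. The *Pcdha* genes summed to 66.1, 66.00, 63.3 and 74.5 FPKM in CONTROL-VEH 1 to 4 and to 58.5, 47.5, 44.6 and 24.7 FPKM in OGD-VEH 9 to 12. The groups did not overlap, OGD-VEH 12 was lowest and OGD-VEH 9 came nearest to the controls. The log2 difference of these sums was -0.69, which leaves 62.1% of the control level, and was -0.43 without OGD-VEH 12. The *Pcdhac* sum, nearly all *Pcdhac2*, had a log2 difference of -0.71, again without overlap.

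The *Pcdhb* genes summed to 84.5, 88.5, 93.9 and 81.1 FPKM in CONTROL-VEH and to 70.2, 70.1, 75.9 and 66.9 FPKM in OGD-VEH. These groups were separate, and the cultures within each were close, with a log2 difference of -0.30 against a pooled SD of 0.08. The *Pcdhga* genes summed to 81.1 to 91.9 FPKM in CONTROL-VEH and to 60.8 to 72.8 FPKM in OGD-VEH, with the same log2 difference of -0.30. The *Pcdhgb* genes, which lie between the *Pcdhga* genes, summed to 22.9 to 27.3 FPKM and 21.6 to 31.6 FPKM, with a log2 difference of 0.00 and overlapping groups (-0.08 with median-ratio scaling). The *Pcdhgc* genes summed to 86.6 to 134 FPKM and 92.6 to 151 FPKM, with a log2 difference of 0.24 and overlap.

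**Figure D1:**
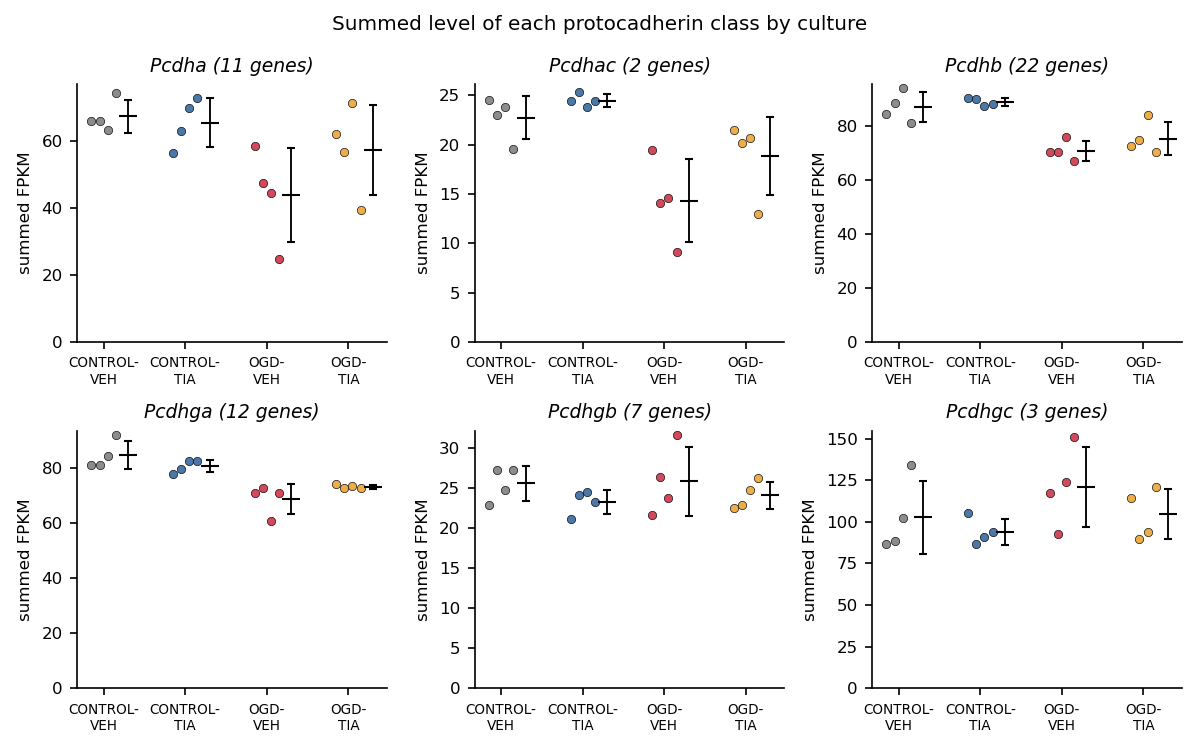
Summed FPKM of each class (y axis, from 0) in the 4 cultures of each group (x axis). Points are cultures, and the bar beside them is the mean ± SD of the 4. *Pcdha*, *Pcdhac*, *Pcdhb* and *Pcdhga* sums of OGD-VEH lie below all CONTROL-VEH sums (*Pcdhac* only just, 19.5 against 19.6 FPKM), and *Pcdhgb* and *Pcdhgc* sums overlap.

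Gene by gene, no clustered protocadherin met the study's thresholds for a differentially expressed gene (DEG) in OGD-VEH versus CONTROL-VEH by limma. These are a padj no higher than 0.05 with a log2 fold change no smaller than 1 in size. The study applied them with DESeq2 and reported more DEGs in this comparison than limma called here. Among all 16346 genes tested, limma called 2.40% as DEGs with higher and 1.68% with lower levels. These calls, among them those of the marker and related genes given here, depended on single cultures. The DEGs of all genes, 393 higher and 275 lower, were 1185 and 1001 without OGD-VEH 9, 43 and 28 without OGD-VEH 12, 13 and 5 without CONTROL-VEH 4, and at most 6 and 3 without any of the other 5 cultures. At a padj of at most 0.05 whatever the fold change, a rule added after the values were seen and the one behind "fell" and "rose" from here on, 3 of the 54 genes fell and none rose, against 3.45% lower and 4.99% higher among all genes. The share of 5.56% is near the background. The median log2 fold change was -0.32 over the 54 genes and 0.10 over all genes, and 46 of the 54 (85.2%) were below 0, against 41.8% of all genes. In 16 of the 54 genes (29.6%) all 4 OGD-VEH cultures lay under the lowest control, against 9.95% of all genes, and in 1 gene (1.85%) all 4 lay over the highest control, against 12.7%.

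The 3 genes that fell were *Pcdhga2*, *Pcdha9* and *Pcdha5*, all alternate genes. *Pcdhga2* had 6.84, 6.80, 7.56 and 7.50 FPKM in CONTROL-VEH and 4.33, 5.23, 4.60 and 4.35 FPKM in OGD-VEH. All 4 OGD-VEH cultures were low, and the log2 fold change was -0.62 ± 0.13 (SE, n = 4, limma padj = 0.0360). *Pcdha9* had 6.08, 5.40, 6.79 and 6.26 FPKM in CONTROL-VEH and 3.83, 4.34, 4.12 and 3.17 FPKM in OGD-VEH. Its groups were separate as well, with a log2 fold change of -0.66 ± 0.15 (SE, n = 4, limma padj = 0.0437). *Pcdha5* had 6.07, 5.62, 5.76 and 6.47 FPKM in CONTROL-VEH and 4.91, 3.06, 2.86 and 2.77 FPKM in OGD-VEH. OGD-VEH 9 stood above the other 3, and the log2 fold change was -0.83 ± 0.20 (SE, n = 4, limma padj = 0.0447). The exact permutation p was 0.0286 for each of these genes, the smallest that 4 against 4 cultures allow (two-sided, 70 assignments). Every gene whose groups do not overlap has this p, so it adds nothing to their separation. The 3 padj lay close to the threshold. Without OGD-VEH 9, 14 genes passed and 4 were DEGs (*Pcdha1*, *Pcdha2*, *Pcdha5* and *Pcdha6*), and without any other culture of the comparison none passed.

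In OGD-VEH versus CONTROL-VEH, log2 fold changes tended to be further below 0 for early than for late *Pcdha* and *Pcdhb* genes. *Pcdhac2*, the last tested alpha gene, was not part of this order, with a log2 fold change of -0.71. *Pcdha1*, the first alpha gene and named here after its values were seen, had 1.86, 2.50, 2.36 and 2.21 FPKM in CONTROL-VEH and 1.75, 1.15, 0.753 and 0.233 FPKM in OGD-VEH, with a log2 fold change of -1.36 ± 0.48 (SE, n = 4, limma padj = 0.0888). *Pcdha2* had a log2 fold change of -0.99 ± 0.31 (SE, n = 4, limma padj = 0.0702), and *Pcdha12*, the last of the alternate alpha genes, -0.33 ± 0.22 (SE, n = 4, limma padj = 0.314). Over the 10 tested *Pcdha* genes the Spearman correlation of position order and log2 fold change was 0.81, and over the 21 tested *Pcdhb* genes 0.79. In OGD-TIA versus CONTROL-TIA the same correlations were 0.35 and 0.34, and the difference was not tested. Without OGD-VEH 12 those of the first comparison were 0.71 and 0.76, and without OGD-VEH 9 they were 0.85 and 0.76. The log2 fold changes of *Pcdhb2* to *Pcdhb9* lay between -0.79 and -0.31, and those of *Pcdhb16* to *Pcdhb22* between -0.17 and 0.14. Over the 19 *Pcdhga* and *Pcdhgb* genes the correlation was 0.14. These are descriptions across genes, which share the 8 libraries of a comparison and, in the alpha and gamma clusters, the constant exons.

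**Figure D2:**
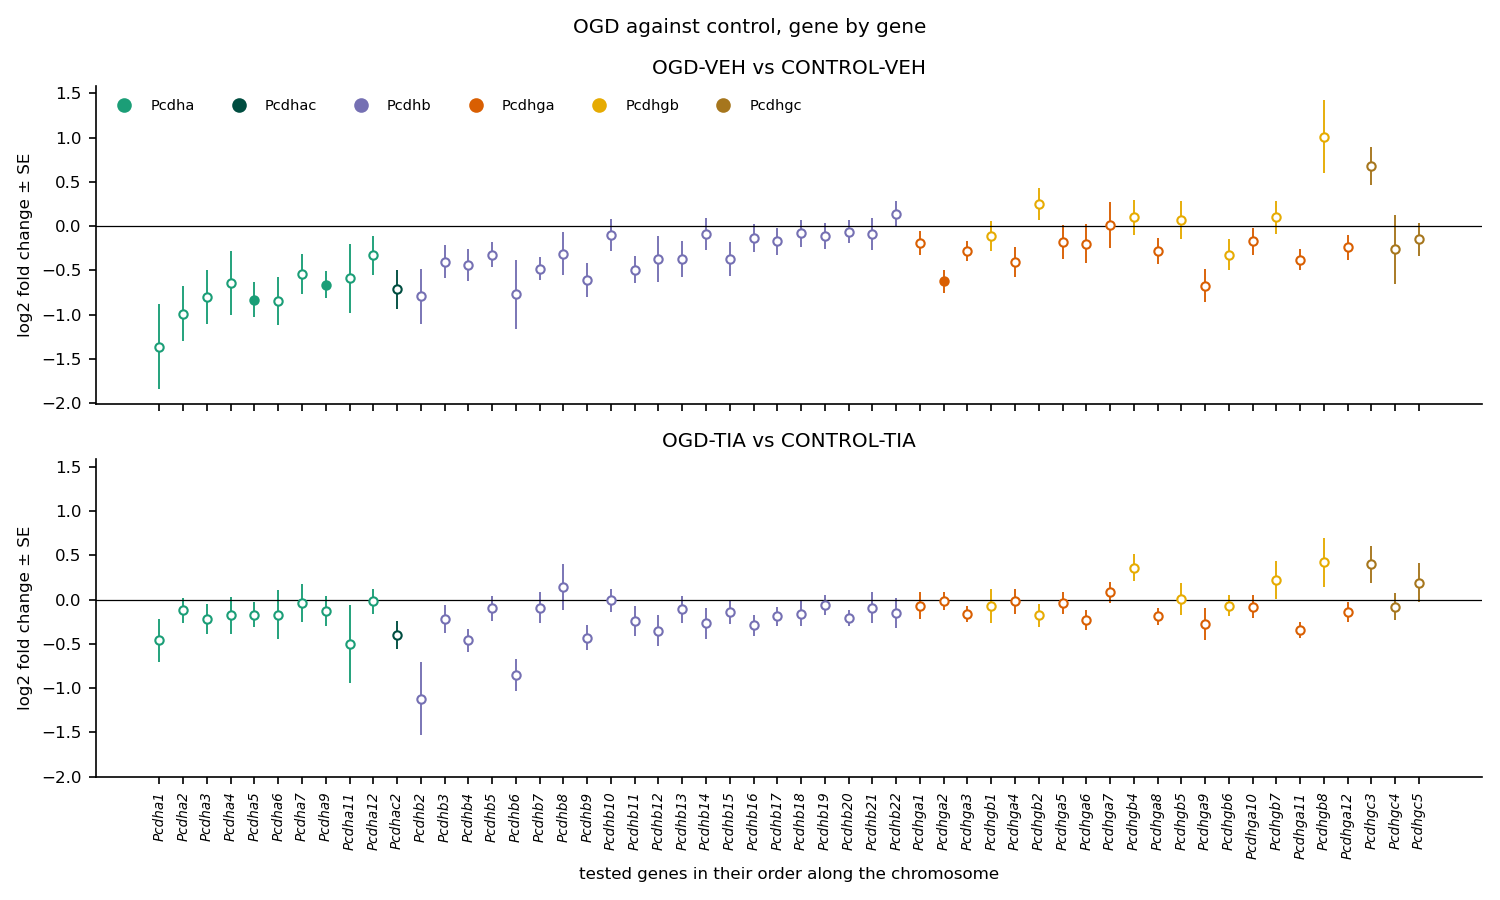
Log2 fold change ± SE (y axis) of the 54 tested genes in their order along the chromosome (x axis) for OGD-VEH versus CONTROL-VEH (top) and OGD-TIA versus CONTROL-TIA (bottom), coloured by class. Filled points have a limma padj of at most 0.05, which *Pcdha5*, *Pcdha9* and *Pcdhga2* reach in the top panel. The *Pcdha* values run from -1.36 to -0.33 in the top panel and from -0.50 to -0.02 in the bottom panel.

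The *Pcdha* sums had the order of the neuron marker sums in OGD-VEH, OGD-TIA and CONTROL-TIA, but not in CONTROL-VEH. In CONTROL-VEH 1 to 4 the neuron marker sums were 3246, 3313, 3622 and 3836 FPKM. The *Pcdha* sums of these cultures were 66.1, 66.00, 63.3 and 74.5 FPKM. In OGD-VEH 9 to 12, the neuron marker sum was 2899.6, 2184, 2127 and 1499 FPKM, in the same order as the *Pcdha* sums of 58.5, 47.5, 44.6 and 24.7 FPKM. The log2 difference of the neuron marker sum between OGD-VEH and CONTROL-VEH was -0.72, beside -0.69 for *Pcdha* and -0.30 for *Pcdhb* and *Pcdhga*. All 16 neuron markers had a log2 fold change below 0 (median -0.84), and *Syt1*, the calcium sensor of vesicle release, fell by 1.52 ± 0.37 on the log2 scale (SE, n = 4, limma padj = 0.0447). The part of the neuron marker difference in the protocadherin values was not tested.

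Among the C-type genes, *Pcdhac2* and *Pcdhgc3* had opposite signs. *Pcdhac2* had 23.8, 22.8, 23.4 and 19.02 FPKM in CONTROL-VEH and 19.1, 13.8, 14.4 and 8.84 FPKM in OGD-VEH. The groups overlapped at CONTROL-VEH 4 and OGD-VEH 9, and the log2 fold change was -0.71 ± 0.22 (SE, n = 4, limma padj = 0.0695). *Pcdhgc3*, whose protein is known to promote dendrite branching, had 35.02, 34.3, 38.9 and 44.1 FPKM in CONTROL-VEH and 42.4, 68.8, 55.5 and 85.2 FPKM in OGD-VEH. OGD-VEH 9 lay within the control range, and the log2 fold change was 0.68 ± 0.21 (SE, n = 4, limma padj = 0.0662). The mean level of *Pcdhgc5* was 2.72 ± 0.628 FPKM (SD, n = 4) without and 2.41 ± 0.206 FPKM (SD, n = 4) after OGD, with a limma padj of 0.616. For *Pcdhac1*, below the filter, the means were 0.459 ± 0.231 FPKM (SD, n = 4) and 0.280 ± 0.0604 FPKM (SD, n = 4), with overlapping groups.

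The astrocyte marker sum of OGD-VEH 9 to 12 was 1034, 1405, 1286 and 2607 FPKM, in the same order as *Pcdhgc3*, and among the CONTROL-VEH cultures number 4 was highest in both, with 1642 FPKM of astrocyte markers. In the TIA groups, cultures 8 and 16 were highest in both, with 889.8 and 1981 FPKM of astrocyte markers and 37.7 and 70.5 FPKM of *Pcdhgc3*. The oligodendrocyte lineage sums of OGD-VEH 9 to 12, 244, 559.7, 526 and 676 FPKM, also had the order of *Pcdhgc3*. The progenitor sums there were 149, 259, 259 and 429 FPKM. In the controls, the oligodendrocyte lineage sums were highest in cultures 3 and 7 and the progenitor sums in cultures 4 and 5. The labels do not tie cultures of different groups to each other. No astrocyte marker reached a padj of at most 0.05 in this comparison, and 8 of 9 had a log2 fold change above 0 (median 0.67). Of the 7 tested markers of the oligodendrocyte lineage, 4 were DEGs with higher levels, *Olig1*, *Olig2*, *Cspg4* and *Sox10*, against 2.40% of all genes. *Mbp*, a myelin protein, fell by 0.88 ± 0.23 on the log2 scale (SE, n = 4, limma padj = 0.0493). Of 7 progenitor markers *Nes* was a DEG with a higher level, as was *Cd68* of the microglia list. The part of these markers in the *Pcdhgc3* values was not tested. As a share of the gamma cluster, *Pcdhgc3* had 17.9% ± 0.549 (SD, n = 4) in CONTROL-VEH and 29.1% ± 7.12 (SD, n = 4) in OGD-VEH. This share depends on a short *Pcdhgc4* isoform, described below, that is part of the cluster sum. It had 13.2 FPKM in OGD-VEH 10 and 56.3 to 61.5 FPKM in the other OGD-VEH cultures.

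*Pcdhgb8* was the gene whose 4 OGD-VEH cultures were all above CONTROL-VEH. It had 0.776, 0.665, 0.164 and 0.439 FPKM in CONTROL-VEH and 0.995, 1.22, 0.812 and 1.10 FPKM in OGD-VEH. The log2 fold change was 1.01 ± 0.41 (SE, n = 4, limma padj = 0.120) at an estimated mean of 80.7 reads per culture, the fewest of the tested genes.

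The alternate genes of highest and lowest level in each class had the following differences. *Pcdhga3* and *Pcdhga11*, the highest of their class, had log2 fold changes of -0.28 ± 0.11 (SE, n = 4, limma padj = 0.111) and -0.38 ± 0.12 (SE, n = 4, limma padj = 0.0709), both without overlap. *Pcdhga10*, the lowest, had -0.17 ± 0.15 (SE, n = 4, limma padj = 0.461). *Pcdhb20* and *Pcdhb8*, the highest of the beta genes, had -0.06 ± 0.13 and -0.31 ± 0.24 (SE, n = 4, limma padj = 0.778 and 0.369). *Pcdhgb6* had -0.32 ± 0.18 and *Pcdhgb4* 0.10 ± 0.20 (SE, n = 4, limma padj = 0.229 and 0.739). *Pcdha4* had -0.64 ± 0.36 and *Pcdha11* -0.59 ± 0.39 (SE, n = 4, limma padj = 0.229 and 0.308).

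**Figure D3:**
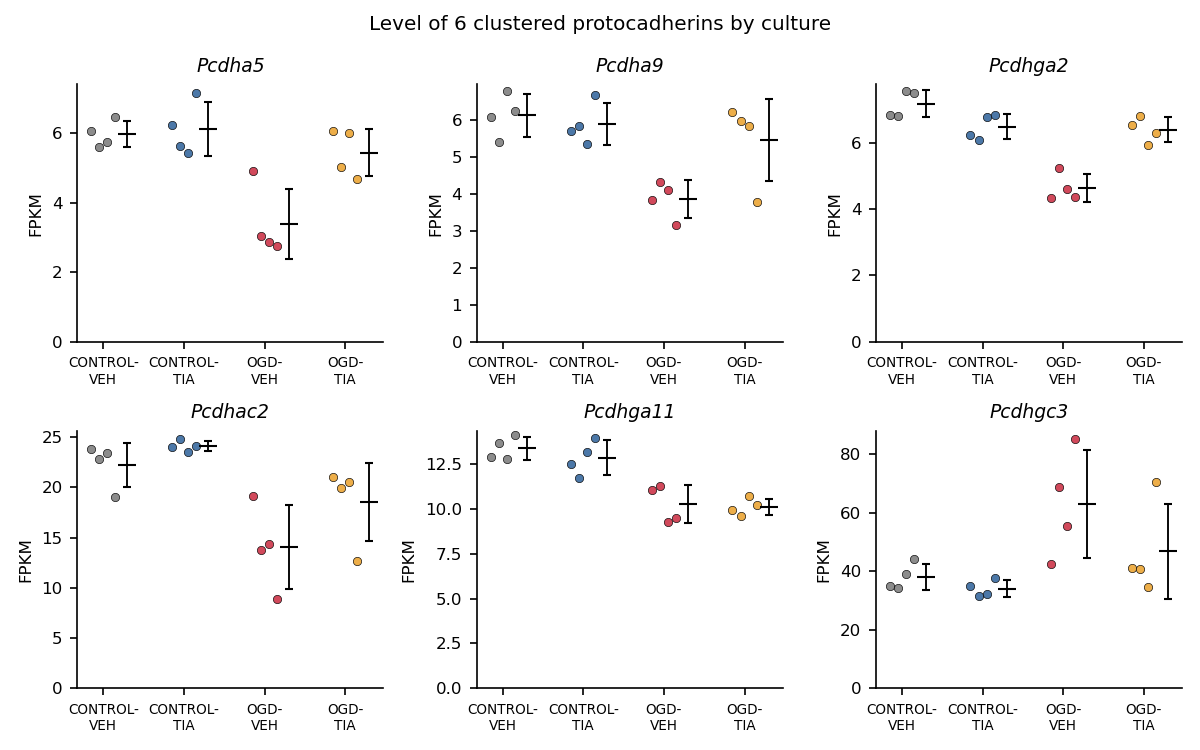
FPKM (y axis, from 0) of 6 clustered protocadherins in the 4 cultures of each group (x axis), with the mean ± SD of the 4 beside the points. *Pcdha5*, *Pcdha9*, *Pcdhga2* and *Pcdhga11* are lower in all OGD-VEH cultures than in any CONTROL-VEH culture, *Pcdhac2* and *Pcdhgc3* overlap, and the OGD-TIA cultures have 5.93 to 6.81 FPKM of *Pcdhga2*.

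With TIA, the same comparison asks what OGD does to pretreated neurons. The *Pcdha* sums overlapped, the *Pcdhac*, *Pcdhb* and *Pcdhga* sums were lower without overlap, and no gene passed the test. The *Pcdha* genes summed to 56.4, 63.2, 69.9 and 72.9 FPKM in CONTROL-TIA and to 62.1, 56.7, 71.4 and 39.3 FPKM in OGD-TIA, so that 3 of the 4 OGD-TIA cultures lay within the control range and OGD-TIA 16 below it. The log2 difference was -0.22, and -0.05 without OGD-TIA 16. The neuron marker sums of OGD-TIA 13 to 16 were 3115, 3071, 3220.2 and 1989 FPKM, again in the order of the *Pcdha* sums, with a log2 difference of -0.27 from CONTROL-TIA.

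The *Pcdhb* genes summed to 90.3, 90.00, 87.3 and 88.1 FPKM in CONTROL-TIA and to 72.3, 74.6, 83.9 and 70.1 FPKM in OGD-TIA. Every OGD-TIA culture was lower, with a log2 difference of -0.24. The *Pcdhga* sums were 77.9 to 82.6 FPKM and 72.7 to 74.1 FPKM, separate at a log2 difference of -0.14. The *Pcdhac* sums were 23.8 to 25.3 FPKM and 12.97 to 21.5 FPKM, separate at -0.40 (-0.23 without OGD-TIA 16). The *Pcdhgb* and *Pcdhgc* sums overlapped, with log2 differences of 0.05 and 0.15.

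In OGD-TIA versus CONTROL-TIA limma called 0 of the 54 genes and 0 of all 16242 genes (0%). Of all genes it called 10 higher and 6 lower without OGD-TIA 16, and 0 and 2 without CONTROL-TIA 7. The study, which used DESeq2, reported DEGs in this comparison, fewer than without TIA. By limma with all cultures, at an unadjusted p under 0.05, 8 of the 54 genes (14.8%) were lower and 1 (1.85%) higher. Among all genes 7.92% were lower and 11.6% higher. In 9 of the 54 (16.7%) every OGD-TIA culture was below every CONTROL-TIA culture, against 6.72% of all genes, and none was above, against 9.51%. The median log2 fold change was -0.14 over the 54 genes and 0.04 over all genes. The 3 smallest p were those of beta and gamma genes. *Pcdhb6* had 4.03, 3.89, 5.53 and 3.20 FPKM in CONTROL-TIA and 2.01, 2.25, 2.52 and 2.09 FPKM in OGD-TIA, a log2 fold change of -0.85 ± 0.18 (SE, n = 4, limma padj = 0.109). For the full-length *Pcdhb6* isoform alone it was -0.22 (limma padj = 0.742 in a fit of each isoform by itself), and the other isoform, of 681 bases, had an estimated mean of 19.5 reads. *Pcdhga11* had 12.5, 11.7, 13.2 and 13.98 FPKM and 9.95, 9.62, 10.7 and 10.2 FPKM, a log2 fold change of -0.34 ± 0.09 (SE, n = 4, limma padj = 0.144). *Pcdhb4* had 2.34, 2.23, 2.16 and 2.55 FPKM and 1.55, 1.64, 1.84 and 1.59 FPKM, with -0.46 ± 0.13 (SE, n = 4, limma padj = 0.148). All 3 were separate between the groups.

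The 2 OGD comparisons share no culture. The log2 fold changes of the 54 genes with and without TIA had a Pearson correlation of 0.63 across genes, beside 0.60 over 15891 genes tested in both. In 44 of the 54 (81.5%) both were below 0, against 31.9% of all genes, and 40 of the 54 (74.1%) were smaller in size with TIA, against 73.3% of all genes. *Pcdhb4*, *Pcdhga3*, *Pcdhga8* and *Pcdhga11*, 4 of the 54, were lower in every OGD culture in both arms, as were 3.59% of all genes.

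**Figure D4:**
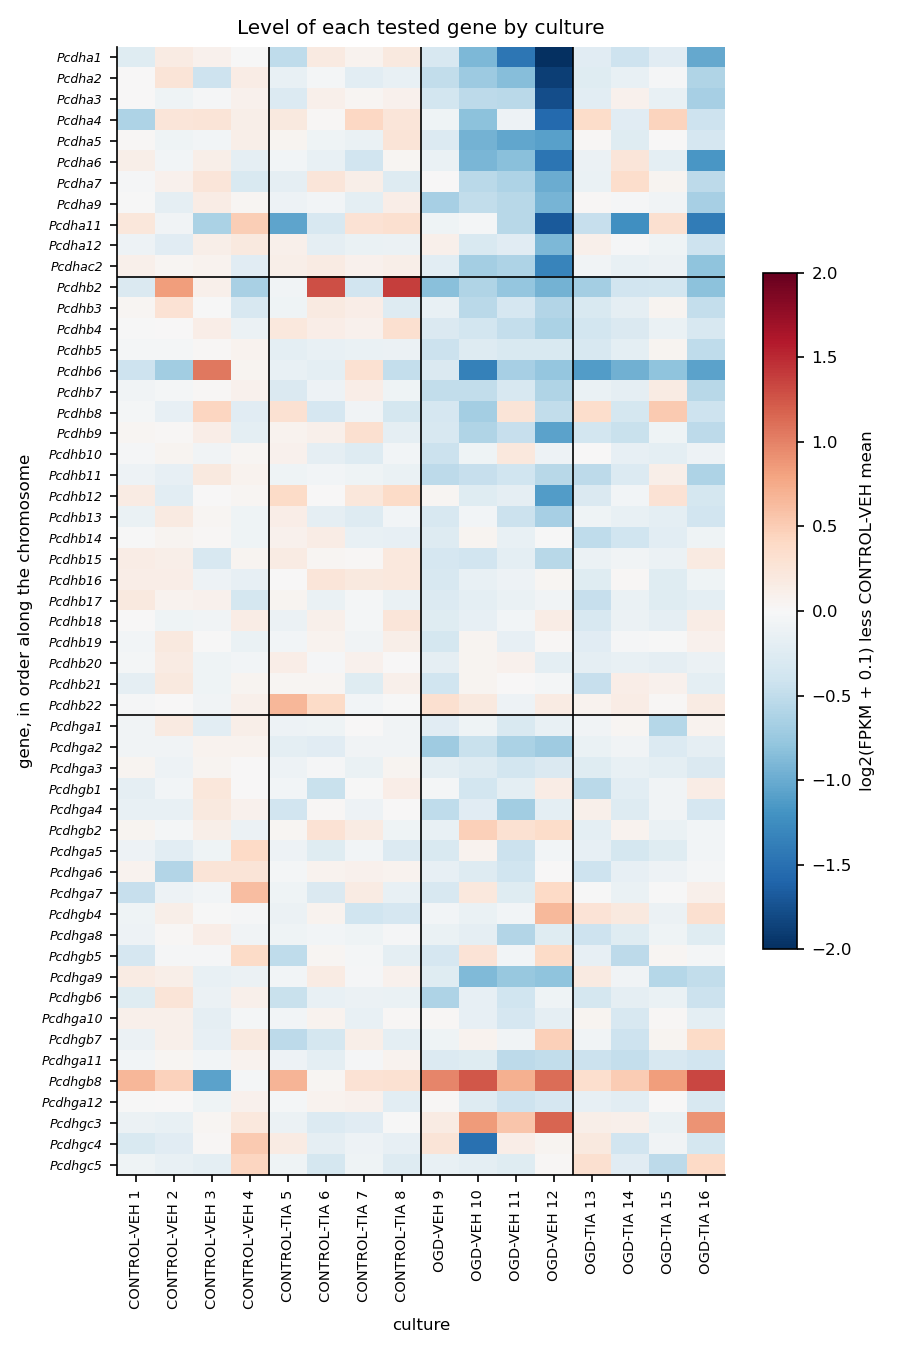
Level of the 54 tested genes (rows, in order along the chromosome, with lines between the clusters) in the 16 cultures (columns, with lines between the groups), as log2(FPKM + 0.1) less the mean of CONTROL-VEH. The colours end at -2 and 2. OGD-VEH 12 and OGD-TIA 16 have the lowest *Pcdha* sums, 24.7 and 39.3 FPKM, and the highest *Pcdhgc3* levels, 85.2 and 70.5 FPKM.

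Pooling both drug arms, with the drug as a covariate over the 16 cultures, asks what OGD changes on average. No clustered protocadherin was a DEG, against 2.80% of 16313 genes higher and 1.99% lower. At a padj of at most 0.05, 16 of the 54 genes (29.6%) fell and 2 (3.70%) rose, against 13.4% lower and 18.7% higher among all genes. The *Pcdha* genes that fell were *Pcdha1*, *Pcdha2*, *Pcdha3*, *Pcdha5* and *Pcdha9*, together with *Pcdhac2*. The *Pcdhb* genes were *Pcdhb2*, *Pcdhb4*, *Pcdhb6*, *Pcdhb9* and *Pcdhb11*, and the *Pcdhga* genes *Pcdhga2*, *Pcdhga3*, *Pcdhga8*, *Pcdhga9* and *Pcdhga11*. *Pcdhgb8* and *Pcdhgc3* rose. The log2 fold change of *Pcdhgb8* was 0.72 ± 0.25 (SE, 8 against 8, limma padj = 0.0380), and 12 of its 24 alternatives kept a padj of at most 0.05. Of the genes that fell, *Pcdha3* kept it in 12 of 26 and *Pcdha2* in 14 of 26 alternatives, and each of the others in at least 20. Over the leave-outs of single cultures, between 12 and 23 of the 54 genes passed.

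The 3 smallest p of the pooled comparison belonged to *Pcdhga11*, *Pcdhb4* and *Pcdhb9*. *Pcdhga11* fell by 0.36 ± 0.07 on the log2 scale (SE, 8 OGD against 8 control cultures, limma padj = 0.00245). *Pcdhb4* fell by 0.45 ± 0.09 (SE, 8 against 8, limma padj = 0.00343) and *Pcdhb9* by 0.52 ± 0.11 (SE, 8 against 8, limma padj = 0.00534). *Pcdhb9* had 6.04 to 7.57 FPKM in CONTROL-VEH, 6.07 to 8.60 FPKM in CONTROL-TIA, 3.24 to 5.54 FPKM in OGD-VEH and 4.76 to 6.51 FPKM in OGD-TIA. *Pcdhac2* fell by 0.56 ± 0.14 (SE, 8 against 8, limma padj = 0.0108) and *Pcdhgc3* rose by 0.54 ± 0.15 (SE, 8 against 8, limma padj = 0.0161). Of the markers, 12 of 16 neuron markers fell, 3 of 9 astrocyte and 4 of 7 progenitor markers rose, and 5 of 7 tested markers of the oligodendrocyte lineage rose and 1 fell in the same fit.

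With TIA alone, no clustered protocadherin passed the test, and the class sums overlapped. In CONTROL-TIA versus CONTROL-VEH limma called 0 of the 54 genes and 0 of 16170 genes (0%), and at an unadjusted p under 0.05 there were 0 of the 54 genes, against 1.81% higher and 2.03% lower among all genes. The log2 fold changes ran from -0.24 to 0.56, the latter for *Pcdhb2*, whose CONTROL-TIA cultures had 2.80, 7.34, 2.23 and 7.81 FPKM. Of these, the full-length *Pcdhb2* isoform had 1.94 to 2.80 FPKM and an isoform of 511 bases, with an estimated mean of 9.53 reads, 0 to 5.40 FPKM, and the log2 fold change of *Pcdhb2* reached -0.02 among its alternatives. The 3 smallest p were those of *Pcdhb12* (0.25 ± 0.13), *Pcdhb5* (-0.15 ± 0.09) and *Pcdhga2* (-0.14 ± 0.09) as log2 fold changes ± SE, each with a limma padj of 0.999. The log2 differences of the 6 class sums lay between -0.14 for *Pcdhgb* and 0.11 for *Pcdhac*, with overlap in each class.

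After OGD, no gene differed between TIA and vehicle by the test, and 9 of the 10 tested *Pcdha* genes had a log2 fold change above 0 (*Pcdha11* had -0.11). The *Pcdha* sums of OGD-TIA, 39.3 to 71.4 FPKM, and OGD-VEH, 24.7 to 58.5 FPKM, overlapped at a log2 difference of 0.42 and a pooled SD of 0.46 (0.17 without OGD-VEH 12). In OGD-TIA versus OGD-VEH limma called 0 of the 54 genes and 0 of 16351 genes (0%). At an unadjusted p under 0.05, 4 of the 54 genes (7.41%) were higher and none lower, against 2.87% higher and 5.04% lower among all genes. These were *Pcdha2*, *Pcdha5*, *Pcdha9* and *Pcdhga2*. *Pcdhga2* had 6.54, 6.81, 5.93 and 6.29 FPKM in OGD-TIA, above all OGD-VEH values (4.33 to 5.23 FPKM), and its log2 fold change was 0.46 ± 0.12 (SE, n = 4, limma padj = 0.551). *Pcdha5* had 6.06, 5.03, 6.00 and 4.70 FPKM in OGD-TIA, of which the last lay under OGD-VEH 9, with 0.70 ± 0.21 (SE, n = 4, limma padj = 0.551). *Pcdha9* had 6.22, 5.99, 5.84 and 3.80 FPKM, with 0.47 ± 0.20 (SE, n = 4, limma padj = 0.551).

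The interaction, the OGD effect with TIA less that without, tests whether the drug changed the response. Limma called 0 of the 54 genes and 0 of 16313 genes (0%). At an unadjusted p under 0.05, 4 of the 54 (7.41%) had a positive interaction and none a negative one, against 2.66% and 3.40% of all genes. The 4 were again *Pcdha2*, *Pcdha5*, *Pcdha9* and *Pcdhga2*, which share the OGD-VEH cultures with the comparison before. The interaction of *Pcdhga2* was 0.60 ± 0.14 (SE, 16 cultures, limma unadjusted p = 5.38e-04, padj = 0.722), that of *Pcdha5* 0.67 ± 0.24 (SE, 16 cultures, padj = 0.722) and that of *Pcdha2* 0.87 ± 0.35 (SE, 16 cultures, padj = 0.722). A difference between the arms that misses this threshold is not shown to be absent.

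Reads from the constant exons cannot be given to a single gene of the alpha or gamma cluster, and the annotation shows how much of each transcript they make up. In GENCODE M21 the alpha constant exons are 59, 89 and 2712 bases long and are shared by 13 of the symbols, and the gamma constant exons are 59, 89 and 1971 bases long and shared by 22. A full-length *Pcdha9* transcript has 5341 bases, of which 2860 are constant, and a full-length *Pcdhga11* transcript 4756 bases, of which 2119 are constant. The beta transcripts have no constant exon, but *Pcdhb21* and *Pcdhb22* overlap at their ends on the same strand, where reads may be shared. The isoform estimates divide the constant reads by probability, which couples the values of genes within the alpha and gamma clusters.

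A part of the gamma constant reads was listed under a transcript that is no protocadherin symbol. *Gm38182*, a processed transcript within the gamma cluster, has an isoform of 351 bases with 304 of them in the constant exons. It had 939 ± 150.5 FPKM (SD, n = 4) in CONTROL-VEH, 736 ± 43.4 in CONTROL-TIA, 909 ± 217 in OGD-VEH and 719 ± 59.3 in OGD-TIA, on average 3.96 times the summed FPKM of the 22 gamma genes. In estimated reads this was 24.6% ± 0.929 (SD, n = 4) of the gamma cluster in CONTROL-VEH and 23.7% ± 2.37 in OGD-VEH. Its log2 fold change with OGD was -0.06 ± 0.17 (SE, n = 4, limma padj = 0.820).

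The level of *Pcdhgc4*, a gene tied to the survival of cortical interneurons, rested on a short isoform of this kind. The isoform of 2272 bases has 153 bases of its own and made up 76.1% ± 2.94 (SD, n = 4) of the *Pcdhgc4* FPKM in CONTROL-VEH. *Pcdhgc4* as a whole had 49.1, 51.4, 61.2 and 86.6 FPKM in CONTROL-VEH and 72.6, 21.5, 66.3 and 62.8 FPKM in OGD-VEH. These overlapped, with a log2 fold change of -0.26 ± 0.39 (SE, n = 4, limma padj = 0.659), which was -0.77 with only isoforms that have at least 1500 bases outside the constant exons and 0.15 without OGD-VEH 10. The full-length isoform, with its own first exon, had 9.23, 10.4, 11.96 and 20.2 FPKM in CONTROL-VEH and 9.50, 7.02, 6.51 and 4.28 FPKM in OGD-VEH. There, 3 of the 4 OGD-VEH cultures lay below all controls, with a log2 fold change of -0.90 (limma padj = 0.197 in a fit of each isoform by itself).

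*Pcdha11* carried a similar uncertainty. Its isoform of 625 bases, 420 of them constant, had 10.2, 8.26, 2.98 and 15.1 FPKM in CONTROL-VEH and was listed at 0 in CONTROL-TIA 5, OGD-VEH 12, OGD-TIA 14 and OGD-TIA 16, and it made up 51.1% ± 15.9 (SD, n = 4) of the *Pcdha11* FPKM in CONTROL-VEH. *Pcdhgc3*, in contrast, had its larger part in the full-length isoform, with 25.97, 31.4, 32.03 and 39.2 FPKM in CONTROL-VEH and 34.3, 49.5, 50.8 and 82.4 FPKM in OGD-VEH.

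**Figure D5:**
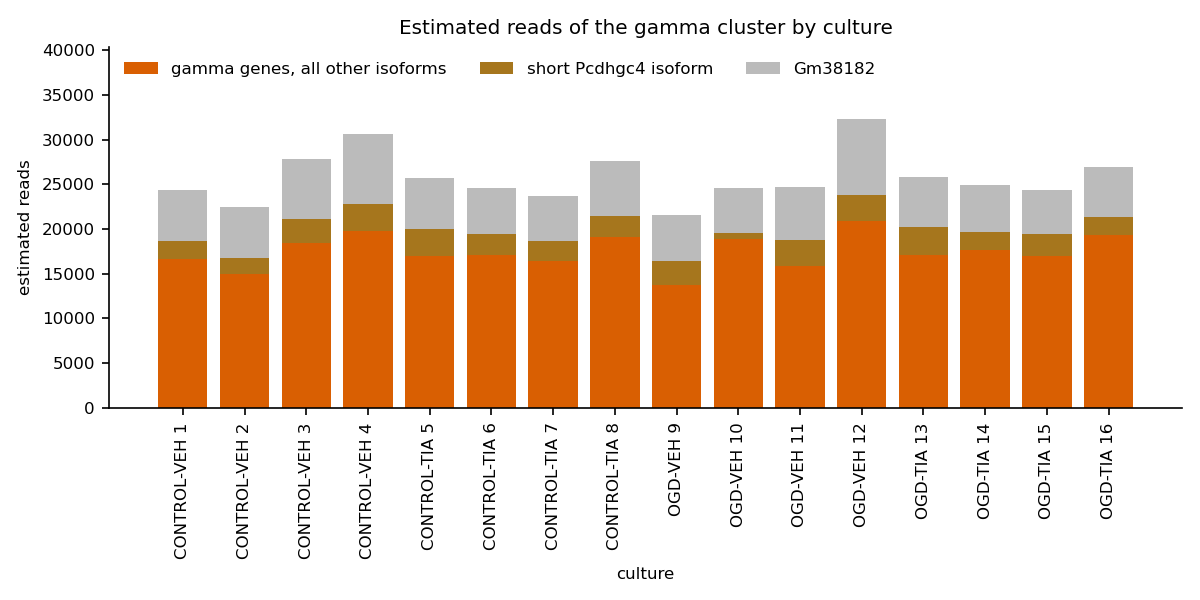
Estimated reads of the gamma cluster (y axis, from 0) in each of the 16 cultures (x axis), stacked as the isoforms of the 22 gamma genes other than the short *Pcdhgc4* isoform, that isoform, and *Gm38182*. *Gm38182* takes 20.1% to 26.4% of the reads of a culture, and the short *Pcdhgc4* isoform is smallest in OGD-VEH 10, with 2.78%.

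Genes that work with the clustered protocadherins were followed by lists drawn up from general knowledge. Of 11 genes for CTCF, cohesin and its loader, which fold the clusters and choose promoters, none was a DEG in OGD-VEH versus CONTROL-VEH. *Smc3*, a core cohesin subunit, rose by 0.61 ± 0.16 on the log2 scale (SE, n = 4, limma padj = 0.0499), and *Ctcf* itself had 0.18 ± 0.23 (SE, n = 4, limma padj = 0.599). In the pooled comparison 4 of the 11 rose and none fell, beside 18.7% and 13.4% of all genes. Of 14 chromatin and DNA methylation genes, 1 was a DEG, with a lower level, against 1.68% lower among all genes. It was *Dnmt3a*, a DNA methyltransferase of neurons, which fell by 1.17 ± 0.25 on the log2 scale (SE, n = 4, limma padj = 0.0401). *Ezh2* rose by 0.87 ± 0.20, *Trim28* by 0.37 ± 0.09 and *Kdm1a* by 0.38 ± 0.10 (SE, n = 4, limma padj = 0.0423, 0.0437 and 0.0477). The pooled fit had 3 of 14 higher and 1 lower, beside the same shares of all genes.

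Of 20 partners and effectors of the proteins, such as the focal adhesion kinases and the WAVE complex, none was a DEG and 1 rose, *Pdcd10*, which binds the alpha and gamma cytoplasmic domains, by 0.69 ± 0.17 on the log2 scale (SE, n = 4, limma padj = 0.0447). In the pooled fit 4 of the 20 rose, near the 18.7% of all genes, and 6 fell, beside 13.4%. Among 11 tested of 12 non-clustered protocadherins, *Pcdh19* was a DEG and fell by 1.40 ± 0.28 on the log2 scale (SE, n = 4, limma padj = 0.0347), and no other passed. Among 22 tested of 28 other cadherins, *Cdh9* and *Cdh8*, classical cadherins of synapses, were DEGs and fell by 1.76 ± 0.40 and 1.13 ± 0.28 (SE, n = 4, limma padj = 0.0421 and 0.0449), and *Fat1* rose by 0.57 ± 0.14 (SE, n = 4, limma padj = 0.0485). Of all genes, 1.68% were DEGs with lower levels. The median log2 fold change was -0.17 for the tested non-clustered protocadherins and -0.39 for the other cadherins, beside -0.32 for the clustered genes. In the pooled fit 2 of the 11 non-clustered protocadherins fell and none rose. Of the 22 other cadherins 10 fell and 1 rose in that fit, beside 16 of the 54 clustered genes that fell. The summed FPKM of the other cadherins was lower in every OGD-VEH culture than in any control (log2 difference -0.43). That of the non-clustered protocadherins overlapped (-0.13). In OGD-TIA versus CONTROL-TIA no gene of these 5 lists had a padj of at most 0.05, and neither did any other of the 16242 genes tested.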

How the data were processed

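For the authors, a sequencing service made libraries from mRNA with strand information kept, checked reads with FastQC, mapped them with STAR to GRCm38 (Ensembl release 92) and estimated isoforms with eXpress. The deposited isoform values were taken as FPKM, scaled between the 16 libraries by TMM, because of how the table is named. Counts were not analysed here, so DESeq2, which the authors used, was not applied. Of 135276 lines, 74 had no identifier and were left out. The other 135202 isoforms were summed per symbol, and 99.82% of them, with all 89 isoforms of the 57 genes, were found in GENCODE M21, the source of transcript lengths, types and positions. Depth was estimated from the FPKM of 1 read in 17546 single-isoform genes longer than 600 bases. Since these FPKM were taken as TMM-scaled, the estimate also carries that scaling. Its upper end lies above the range of aligned reads that the study reports. Because eXpress assigns shared reads by probability, read numbers are estimates without counting intervals. No per-culture column of the table was left out, and no pair of columns was identical.

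Log2(FPKM + 0.1) was fitted with limma 3.58.1 in R 4.3.3 (empirical Bayes with a trend) over all genes whose mean in the cultures of a comparison reached 0.5 FPKM, and p was adjusted by Benjamini-Hochberg over all of them. A fold change on this scale understates that of low genes. The pooled and the interaction fits used 16 cultures. Single genes were also tested by a two-sided exact permutation test. Class sums are described without a test. limma was tested on simulated data. Other computation used Python 3.11.15, pandas 2.3.3, numpy 2.4.6, scipy 1.17.1 and matplotlib 3.10.9.

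Named genes were those called in a comparison, the C-type genes, the 2 highest and the lowest of each alternate class and the 3 smallest p of each comparison, which gave 26 genes; the others named in the text were added after their values were seen. In the related lists, DEGs are named, and otherwise the gene of smallest p; *Ctcf* and the further genes past the padj threshold there were added after their values were seen. The genes, lists and tests were chosen with earlier results of these data known. Alternatives were pseudocounts of 1 and 0.01, no filter, a minimum of 2 FPKM, median-ratio scaling, array weights, robust fitting, all 16 cultures in one fit, other ways of combining isoforms, and leaving out each culture. Isoforms with at least 1500 bases outside the constant exons were an alternative added after seeing the data. Cultures were taken as biological replicates, as the study states.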

Additional observations from a re-analysis of the deposited data

Results flagged for a closer look

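Each gene named by the rule and each class sum was examined for a culture that stood apart from the other 3 of its group by Dixon's ratio, over 128 groups of 4 cultures. Chance flags about 1 in 20 such groups, and 9 were found. OGD-TIA 16 stood apart in *Pcdhac2* with 12.7 FPKM against 19.9 to 21.01 in the other OGD-TIA cultures, in *Pcdha9* with 3.80 FPKM against 5.84 to 6.22, and in the *Pcdhac* sum with 12.97 FPKM against 20.2 to 21.5. The same culture had the lowest neuron marker sum of its group, 1989 FPKM against 3071 to 3220.2. Among the OGD-VEH cultures, number 9 had 4.91 FPKM of *Pcdha5* against 2.77 to 3.06, number 11 a *Pcdhga* sum of 60.8 FPKM against 70.8 to 72.8, and number 12 had 5.95 FPKM of *Pcdhgb4* against 3.42 to 3.64. In the controls, CONTROL-VEH 4 had 3.65 FPKM of *Pcdhgc5* against 2.32 to 2.50, CONTROL-TIA 5 had 5.54 FPKM of *Pcdhgb6* against 6.80 to 6.93, and CONTROL-TIA 6 had 0.579 FPKM of *Pcdha8* against 0.304 to 0.335.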

How the results depend on the processing

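No paired analysis was made, because culture numbers run on from 1 to 16 and the labels tie no cultures across groups. Cultures of different groups may still share a preparation, which the unpaired fits would leave out of account. The number of clustered protocadherins called as DEGs in OGD-VEH versus CONTROL-VEH, 0 by the main fit, was 1 with array quality weights and with isoforms weighted by length, 2 with all 16 cultures in one fit, and 0 to 4 when a culture was left out. The number with a padj of at most 0.05, 3 by the main fit, was 0 without a filter and with each isoform by itself, 5 with median-ratio scaling, 8 with protein-coding isoforms only, 14 with isoforms weighted by length, 17 with all 16 cultures in one fit, 19 with array quality weights, and 0 to 14 when a culture was left out. With array quality weights, 3 passed in OGD-TIA versus OGD-VEH and 2 in the interaction. In the pooled comparison, 1 was a DEG with median-ratio scaling, 0 to 2 when a culture was left out (2 without CONTROL-TIA 5, and 1 without CONTROL-VEH 1, CONTROL-VEH 4, CONTROL-TIA 7 or OGD-VEH 9), and 6 had an isoform with a padj of at most 0.05. With median-ratio scaling, the *Pcdhga* log2 difference in OGD-TIA versus CONTROL-TIA was -0.18 instead of -0.14. The causes were not tested, except that no filter means more genes tested. Among 2927 recomputed values of the named genes, 57 lost and 40 gained a padj of at most 0.05, and none that passed in either setting changed sign. Depth limits *Pcdha8*, *Pcdhac1* and *Pcdhb1*, with estimated means of 44.9, 44.7 and 19.4 reads per culture.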
